A study of Mus musculus with 3 samples.

Results

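The genes around the lncGM1082 locus were examined for differences close to the site that was removed in lncGM1082 knockout mice. RefSeq lists Gm1082 as another name of Arhgap33os. This gene makes a long noncoding RNA and lies on the plus strand of mouse chromosome 7 from 30515122 to 30522193 (GRCm38). Members were all rows of the deposited table on chromosome 7 that overlap the interval from 30265122 to 30772193, which reaches 250 kb beyond the gene on both sides. Symbols that begin with Cox were left out. The rule used no measured value and gave 48 of the 57561 rows in the table. Of these, 34 carry an Ensembl identifier and 14 a NONCODE identifier, the name a catalogue of noncoding RNA gives to a transcript locus. All 34 Ensembl members have the identical chromosome, strand, start and end in GENCODE M21.

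RNA was sequenced from MDSCs (myeloid-derived suppressor cells), an immature myeloid population known for holding back T cell responses. They were grown from femur bone marrow for 4 days in medium with GM-CSF and IL-6. The 3 libraries came from lncGM1082-/- mice (lncGM1082 KO), lnc57Rik-/- mice (lnc57Rik KO) and wild type mice (WT), all labelled C57BL/6. There was 1 library per genotype, so differences between libraries could not be set against replicates and none was tested. The series' design text speaks of 2 samples, which can be read as 2 for each genotype; each library here is 1 column of the table. The sources used here do not give the deleted bases, the age or sex of the mice, or whether a library pooled animals. The marrow donors named in the growth protocol are lnc57Rik KO and C57BL/6 mice, without mention of lncGM1082 KO mice.

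A long noncoding RNA can act on its neighbours on the same chromosome, through its transcript, through the act of transcription or through regulatory DNA inside its gene. A knockout of such a gene can therefore be read by distance and strand along the chromosome. Tyrobp encodes DAP12 and Hcst encodes DAP10, membrane adaptors that pass on signals from activating receptors of myeloid and NK cells. Nfkbid encodes a nuclear inhibitor of the I kappa B family, and Kmt2b a histone H3K4 methyltransferase.

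Promoter sequences are shown for the gene that was targeted and for 3 neighbours described below. These are Hcst, which was lower than WT in both knockouts, Thap8, which had the largest FPKM ratio of lncGM1082 KO to WT among members with at least 10 fragments, and Dmkn, which was lower in the lnc57Rik KO library. They were chosen after their values were seen and because the window holds no annotated exon. The windows of Proser3 and Psenen, 2 members lower than WT in lncGM1082 KO and nearer to the locus, do hold exons and are not shown. Each line gives the 250 bases before the start of the gene, 5′ to 3′ on the gene's own strand, from RefSeq on GRCm38.p6. Capitals mark matches to the motifs named after the sequences.
Arhgap33os, chr7:30514872-30515121, plus strand: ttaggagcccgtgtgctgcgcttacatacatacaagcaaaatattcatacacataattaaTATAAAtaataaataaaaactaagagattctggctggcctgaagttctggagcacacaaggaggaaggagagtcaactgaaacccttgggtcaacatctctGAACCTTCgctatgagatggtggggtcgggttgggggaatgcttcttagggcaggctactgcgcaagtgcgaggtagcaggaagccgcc
Hcst, chr7:30419855-30420104, minus strand: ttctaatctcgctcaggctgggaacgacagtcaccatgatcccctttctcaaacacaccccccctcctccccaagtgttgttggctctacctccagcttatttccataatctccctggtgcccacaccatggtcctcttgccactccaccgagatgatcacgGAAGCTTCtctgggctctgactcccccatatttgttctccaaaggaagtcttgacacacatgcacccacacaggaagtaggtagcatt
Thap8, chr7:30279844-30280093, plus strand: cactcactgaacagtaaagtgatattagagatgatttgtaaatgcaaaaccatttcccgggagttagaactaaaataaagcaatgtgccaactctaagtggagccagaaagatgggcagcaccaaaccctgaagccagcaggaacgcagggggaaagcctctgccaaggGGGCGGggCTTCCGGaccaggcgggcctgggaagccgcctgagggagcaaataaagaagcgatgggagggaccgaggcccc
Dmkn, chr7:30763506-30763755, plus strand: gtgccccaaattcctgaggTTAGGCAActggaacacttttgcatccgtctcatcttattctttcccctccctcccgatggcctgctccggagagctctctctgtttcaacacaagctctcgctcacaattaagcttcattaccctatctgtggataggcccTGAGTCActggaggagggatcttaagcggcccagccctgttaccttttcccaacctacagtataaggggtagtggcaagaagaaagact

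The motifs were searched as letters on both strands. The Arhgap33os window holds a TATA box (TATAAA) from -190 to -185 before the start of the gene and a heat shock element (GAANNTTC) from -89 to -82. Among all 32851 promoter windows of that length in the RefSeq table, 12.4% hold the first and 6.69% the second. The Hcst window holds a heat shock element as well. The Thap8 window holds a GC box (GGGCGG, in 32.7% of all windows) and, on the other strand, an ETS core (CCGGAAG, 6.91%). The Dmkn window holds a C/EBP motif (TTGCNNAA, 9.56%) on the other strand and an AP-1 motif (TGANTCA, 6.75%). No match to a PU.1-type ETS motif (GAGGAAGT, 2.44% of all windows), an NF-kappa B motif (0.356%) or a CCAAT box (CCAAT, 33.8%) lies in these 4 windows. A match is a run of letters and no evidence of binding. A promoter was found for 28 of the 34 member symbols searched; Tyrobp was not among them.

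The level of every gene is given in FPKM, fragments scaled to the length of the transcript and the size of the library. FPKM can be turned back into fragments because low values are whole multiples of 1 fragment. The totals behind the values are 18280413 fragments for lncGM1082 KO, 17593435 for lnc57Rik KO and 18485079 for WT. All 35 members with a known exon length came out within 0.00433 of a whole fragment in every library. FPKM ratios are given with a 95% counting interval (exact binomial, Clopper-Pearson), which covers counting error only and no difference between mice, cultures or libraries. Log2 folds were taken after a pseudocount of 1 FPKM, which understates the change of low genes, and a row was compared where its mean over the 3 libraries was at least 1 FPKM.

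The targeted gene itself was close to silent. The row at the exact position of Arhgap33os held 3 fragments in the lncGM1082 KO library (0.0620 FPKM), 0 in the lnc57Rik KO library and 1 in the WT library (0.0204 FPKM). The 0 allows up to 3 fragments, or 0.0644 FPKM. The ratio of lncGM1082 KO to WT had an interval from 0.244 to 159. With so few fragments a loss of this RNA was not detectable, so the genotype is not checked by this row.

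No compared gene near the locus passed a log2 fold of 1 in either direction, the rule of size used here, in either knockout. Of the 48 members, 16 had a mean of at least 1 FPKM and were compared, 13 from Ensembl and 3 from NONCODE. In lncGM1082 KO against WT, 0 of the 16 were higher and 0 lower by that rule, where 0.865% of the 22202 rows compared were higher and 0.946% lower. A count of 0 among 16 is close to these shares. The median log2 fold of the 16 was -0.09, against 0.01 over all rows, with 6 above 0 and 10 below. The median of their absolute log2 fold was 0.13, against 0.16 over all rows. For Ensembl rows only, it was 0.12 among the 13 members and 0.13 over all. In lnc57Rik KO against WT, where the removed gene is a different one, 0 of the 16 were higher and 0 lower, against 3.39% and 1.53% of all rows. There the median was -0.03, against 0.07 over all rows, and the median absolute fold 0.12, against 0.23. For Ensembl rows only, these were -0.03 against 0.10, and 0.12 against 0.22. Over all rows 752 were higher and 340 lower in that comparison, and 621 and 446 under median ratio scaling. In lncGM1082 KO against lnc57Rik KO, 0 of the 16 passed in either direction, against 1.31% higher and 3.07% lower of all rows.

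**Figure D1:**
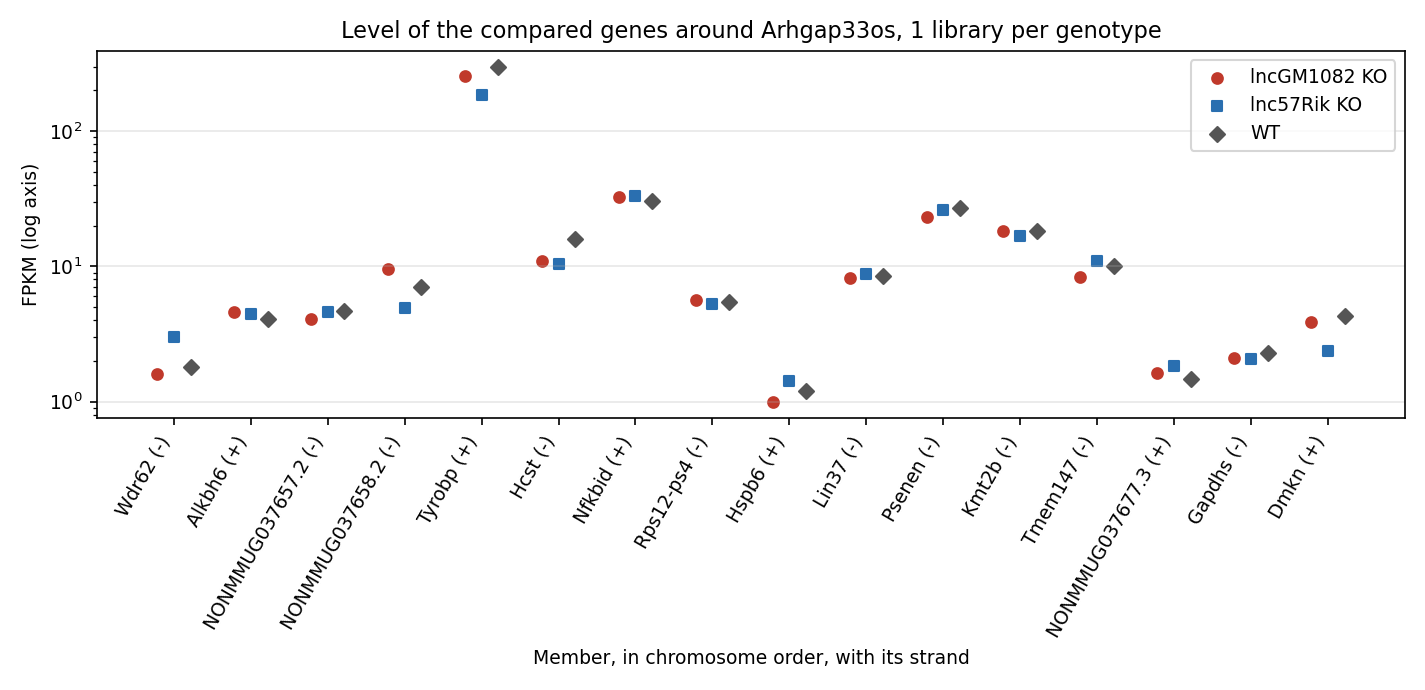
FPKM of the 16 members with a mean of at least 1, on a log axis, in chromosome order; each symbol is 1 library (circle lncGM1082 KO, square lnc57Rik KO, diamond WT). Tyrobp stands above the rest at 254, 185 and 296 FPKM, and the 3 symbols of most other genes lie close together.

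Read by distance, the compared members within 50 kb of the locus stayed closest to WT in the lncGM1082 KO library. The nearest member compared was Hspb6, described below. Members nearer than Hspb6, among them Arhgap33 and Proser3, fell under the FPKM minimum. Log2 folds of these nearer members against WT ran from -0.39 (Proser3) to 0.14 (NONMMUG078288.1). The distance classes of compared members therefore do not describe the genes right next to the locus. Of the 16 compared, 5 lay within 50 kb of Arhgap33os, 5 from 50 to 150 kb and 6 from 150 to 250 kb. Their median log2 folds against WT were -0.03, -0.17 and -0.09 in that order. The widest folds lay in the middle class, from -0.51 to 0.39, and those within 50 kb ran from -0.21 to 0.04. The 6 compared members on the plus strand, that of Arhgap33os, had a median of -0.02 and the 10 on the minus strand -0.09. The median absolute fold was 0.04, 0.22 and 0.11 by distance in lncGM1082 KO, and 0.06, 0.44 and 0.15 in lnc57Rik KO, the same order. In the lnc57Rik KO library the distance classes had median folds of -0.03, -0.44 and 0.11, and the strands 0.12 (plus) and -0.05 (minus). When rows had to average 5 FPKM, the plus strand median turned to -0.27. With all 48 members the classes had 0.03, -0.07 and -0.05. With 5 to 10 rows each, these medians rest on few genes.

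**Figure D2:**
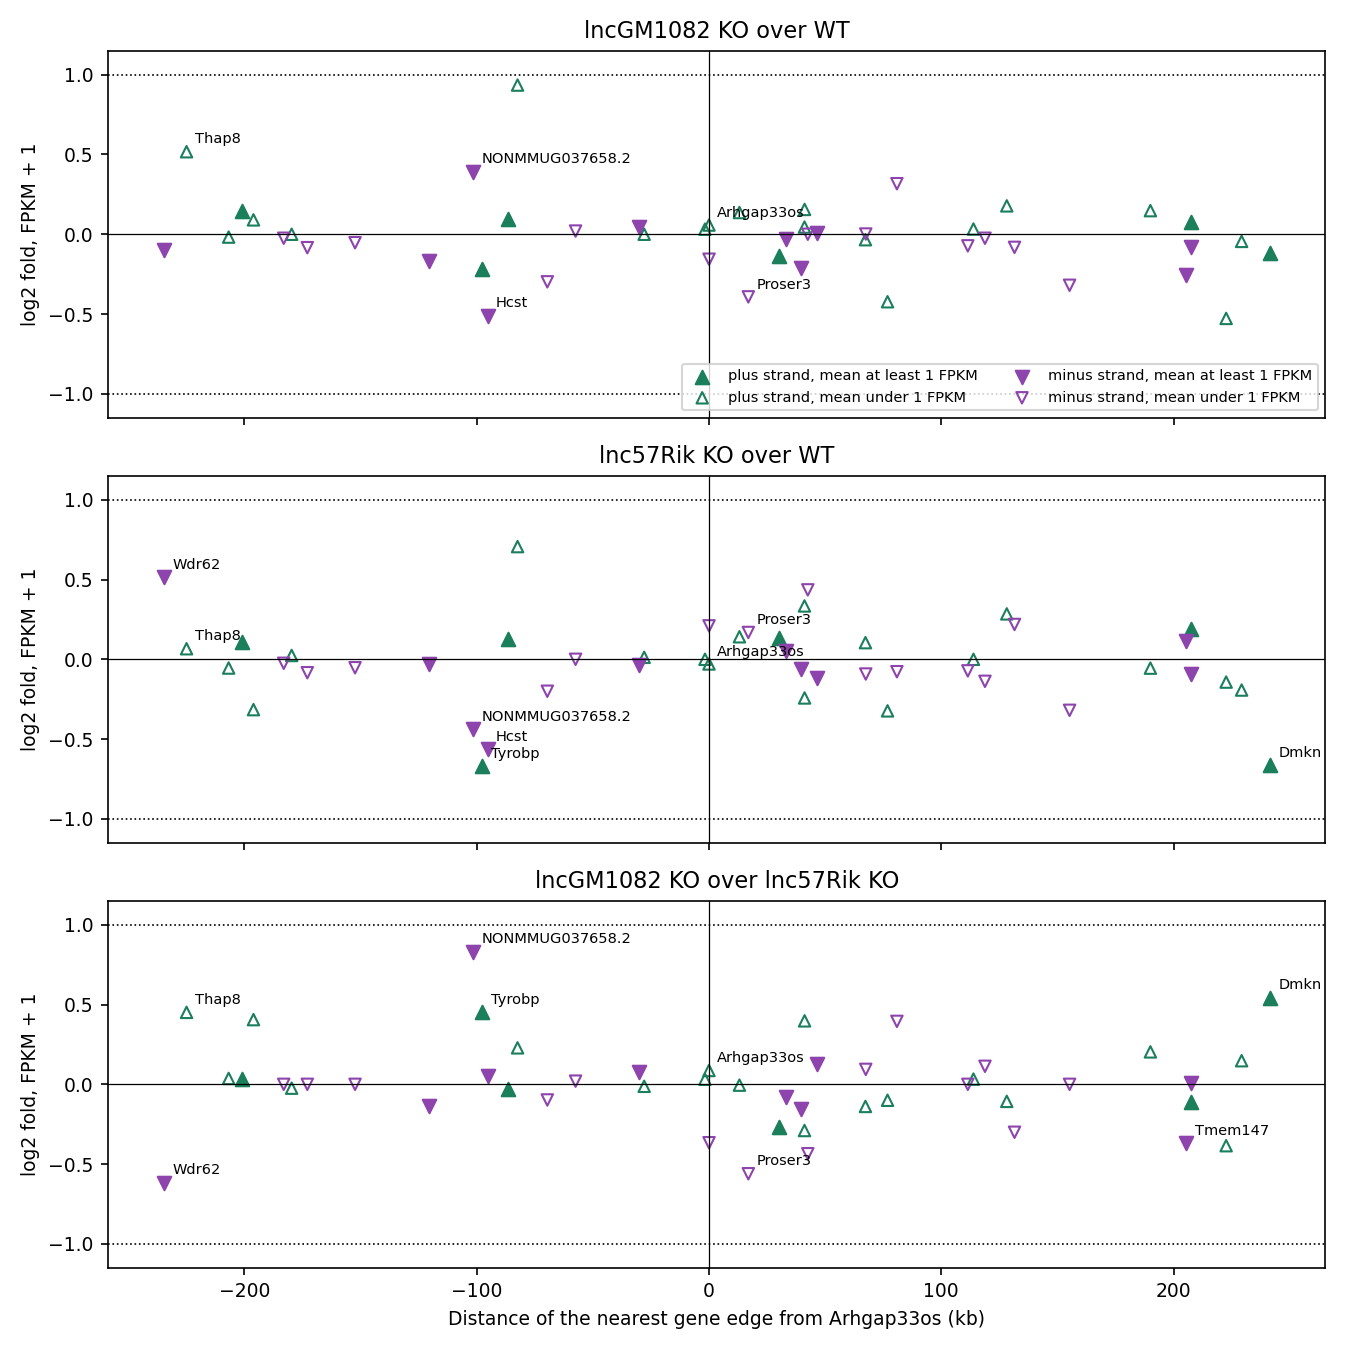
Log2 fold of all 48 members (FPKM plus 1) against the distance of their nearest edge from Arhgap33os in kb, for 3 comparisons; triangles up are plus strand, triangles down minus strand, filled symbols have a mean of at least 1 FPKM. No symbol reaches the dotted lines at 1 and -1. In the top panel the filled symbols within 50 kb lie from -0.21 to 0.04, and Hcst and NONMMUG037658.2, about 100 kb away, lie at -0.51 and 0.39.

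The nearest neighbours on either side were weakly expressed. Prodh2, hydroxyproline dehydrogenase of liver and kidney, ends 1719 bases before Arhgap33os on the same strand. It held 1 fragment in the lncGM1082 KO library and 0 in both others. Arhgap33, a GTPase-activating protein, runs toward Arhgap33os on the minus strand, and the 2 genes end 32 bases apart without overlap. It held 37 fragments in lncGM1082 KO (0.379 FPKM), 73 in lnc57Rik KO (0.778 FPKM) and 53 in WT (0.537 FPKM). The lncGM1082 KO library was thus the lowest of the 3 and the lnc57Rik KO library the highest. Set against WT, lncGM1082 KO had a ratio of 0.706, with an interval from 0.451 to 1.10 that holds 1. The ratio of lncGM1082 KO to lnc57Rik KO was 0.488 (0.319 to 0.734).

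Proser3, which encodes a proline- and serine-rich protein, lies 16.9 kb away on the minus strand. It held 42 fragments in lncGM1082 KO (0.487 FPKM), 99 in lnc57Rik KO (1.19 FPKM) and 83 in WT (0.952 FPKM). The lncGM1082 KO library was lower than both others, with a ratio of 0.512 to WT (0.344 to 0.750) and 0.408 to lnc57Rik KO (0.278 to 0.591). Its mean of 0.877 FPKM left it under the minimum for comparison. Proser3 overlaps Hspb6 on the opposite strand by 122 bases at their starts. Hspb6, a small heat shock protein, had 0.999 FPKM in lncGM1082 KO, 1.41 in lnc57Rik KO and 1.20 in WT, which is the same order. Its ratio of lncGM1082 KO to WT was 0.833 (0.540 to 1.28). Proser3 is also overlapped over 7055 bases by NONMMUG078288.1 on the opposite strand.

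Lin37, Psenen and Kmt2b were closer between libraries than Arhgap33 and Proser3. Lin37, a subunit of the MuvB core that represses cell cycle genes, had 8.24 FPKM in lncGM1082 KO, 8.76 in lnc57Rik KO and 8.42 in WT. Arhgap33, Proser3, Hspb6 and Lin37 had lncGM1082 KO lowest and lnc57Rik KO highest, but the counting intervals of Hspb6 and Lin37 held 1 in every comparison. Under median ratio scaling Lin37 lost this order, at 0.967 of WT in lncGM1082 KO and 0.966 in lnc57Rik KO. Members farther away had the same order, among them Haus5 (132 kb), Tmem147 (206 kb) and Wdr62 (235 kb). The share of all rows with this order was not counted. Psenen, the PEN-2 subunit of gamma-secretase, had 23.3 FPKM in lncGM1082 KO, 25.9 in lnc57Rik KO and 27.1 in WT. Its ratio of lncGM1082 KO to WT was 0.859 (0.765 to 0.965), a small difference that exceeded counting error. Kmt2b had 18.3 FPKM in lncGM1082 KO, 16.7 in lnc57Rik KO and 18.2 in WT. Between lncGM1082 KO and WT its ratio was 1.01, with a narrow interval from 0.957 to 1.06 on 3216 and 3235 fragments. The ratio of lnc57Rik KO to WT was 0.917 (0.871 to 0.965). Rps12-ps4, a ribosomal protein pseudogene inside Nphs1 on the opposite strand, had 5.65, 5.30 and 5.45 FPKM in lncGM1082 KO, lnc57Rik KO and WT, and may share reads with its parent gene and other copies.

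U2af1l4, a small splicing factor related to U2AF, has 2 rows that overlap by 2022 bases on the same strand, so their reads may be split. The row ENSMUSG00000109378 held 53 fragments in lncGM1082 KO, 25 in lnc57Rik KO and 42 in WT. The row ENSMUSG00000078765 held 3, 10 and 2 in the same order. The lnc57Rik KO library was the lowest of the 3 in one row and the highest in the other. Both rows overlap the start of Psenen on the opposite strand. Nphs1, the slit diaphragm protein nephrin, held 1 fragment in the lnc57Rik KO library and 0 in both others.

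Tyrobp and Hcst lie next to each other about 100 kb before Arhgap33os, and both were lower than WT in each knockout. On chromosome 7, Tyrobp spans 30413760 to 30417585 on the plus strand and Hcst 30417712 to 30419854 on the minus strand. They run toward each other and end 126 bases apart. Tyrobp had 254 FPKM in lncGM1082 KO, 185 in lnc57Rik KO and 296 in WT, above 99.2% or more of compared rows in every library. The ratio to WT was 0.860 (0.820 to 0.902) in lncGM1082 KO and 0.627 (0.594 to 0.661) in lnc57Rik KO. Hcst had 10.9 FPKM in lncGM1082 KO, 10.5 in lnc57Rik KO and 16.0 in WT, with ratios to WT of 0.684 (0.549 to 0.849) and 0.656 (0.524 to 0.819). Both knockouts are set against the same WT library, so these are not 2 separate observations. In RNA of a mixed culture, fewer cells of a type and less RNA per cell cannot be told apart.

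A NONCODE transcript starts head to head with Tyrobp. NONMMUG037658.2, on the minus strand from 30411149 to 30413623, begins 137 bases from the start of Tyrobp with no overlap. It had 9.58 FPKM in lncGM1082 KO, 4.95 in lnc57Rik KO and 7.07 in WT. Its log2 fold against WT was 0.39 in the lncGM1082 KO library, the highest among the 16, where Tyrobp had -0.22. In the lnc57Rik KO library both were below WT, at -0.44 and -0.67. Between the knockouts its log2 fold was 0.83, the largest among the compared members in that comparison. Its exon length was not at hand, so it has no interval; its span of 2475 bases allows at most 434 fragments in lncGM1082 KO, 216 in lnc57Rik KO and 323 in WT.

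The other compared members from 50 to 150 kb differed less. Nfkbid, which restrains NF-kappa B in the nucleus, had 32.7 FPKM in lncGM1082 KO, 33.4 in lnc57Rik KO and 30.5 in WT. The ratio of lncGM1082 KO to WT was 1.07 (0.994 to 1.16), and that of lnc57Rik KO to WT 1.10 (1.01 to 1.18). The second interval holds 1 under median ratio scaling (0.942 to 1.10). NONMMUG037657.2 had 4.05, 4.56 and 4.68 FPKM in lncGM1082 KO, lnc57Rik KO and WT.

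Among compared members beyond 150 kb, the wider differences were in the lnc57Rik KO library. Wdr62, a spindle pole protein, had 1.61 FPKM in lncGM1082 KO, 2.999 in lnc57Rik KO and 1.80 in WT. Its ratio to WT was 0.895 (0.723 to 1.11) in lncGM1082 KO and 1.67 (1.39 to 2.01) in lnc57Rik KO. Dmkn, a secreted protein known from epidermis, had 3.89 FPKM in lncGM1082 KO, 2.36 in lnc57Rik KO and 4.32 in WT. Its ratio to WT was 0.901 (0.722 to 1.12) in lncGM1082 KO and 0.546 (0.419 to 0.708) in lnc57Rik KO. Both genes cross the border of the window, Wdr62 at its low end and Dmkn at its high end. Tmem147, a membrane protein of the endoplasmic reticulum, had 8.31 FPKM in lncGM1082 KO, 11.0 in lnc57Rik KO and 10.1 in WT, and a ratio of lncGM1082 KO to WT of 0.822 (0.667 to 1.01). Under median ratio scaling the upper bound was 0.9998.

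The 3 others differed less in log2 fold. Alkbh6, a member of the AlkB dioxygenase family, had 4.61, 4.48 and 4.07 FPKM in lncGM1082 KO, lnc57Rik KO and WT. Gapdhs, the glycolytic enzyme of sperm, had 2.11, 2.08 and 2.28 FPKM in that order. NONMMUG037677.3, which overlaps Gapdhs on the opposite strand over its full 13907 bases, had 1.61, 1.83 and 1.48 FPKM. Its exon length was not at hand, so it has no interval. On its own strand it overlaps Sbsn by 4656 bases and NONMMUG078291.1 by 644, so its reads may be shared with them. Of the 48 members, 15 overlap another member on the opposite strand. Whether the counting used strand is not stated in the labels, so reads of such pairs cannot be told apart.

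Of the 32 members below a mean of 1 FPKM, 21 were Ensembl and 11 NONCODE rows. Thap8, a THAP domain zinc finger gene 225 kb away, stood out among them and is named after its values were seen. It held 22 fragments in lncGM1082 KO (0.495 FPKM), 4 in lnc57Rik KO (0.0935 FPKM) and 2 in WT (0.0445 FPKM). The ratio of lncGM1082 KO to WT was 11.1 (2.73 to 97.6), and that to lnc57Rik KO 5.29 (1.80 to 21.1). Its log2 fold with the pseudocount was 0.52, and 2.04 with a pseudocount of 0.1. Thap8 overlaps the start of Wdr62 on the opposite strand by 326 bases.

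Other low members include genes known from other tissues. Aplp1, an amyloid precursor-like protein of neurons, held 9 fragments in lncGM1082 KO, 13 in lnc57Rik KO and 24 in WT, a ratio of lncGM1082 KO to WT of 0.379 (0.155 to 0.845). Atp4a, the gastric proton pump, held 14, 3 and 6 in that order, and Upk1a, a uroplakin of the bladder, 15, 5 and 7. Syne4, a nesprin of the outer nuclear membrane, held 34 fragments in lncGM1082 KO, 12 in lnc57Rik KO and 29 in WT. For Syne4 the lnc57Rik KO library was the low one, at a ratio of 0.435 to WT (0.202 to 0.878). Kirrel2, Lrfn3 and Etv2, an ETS factor of early blood and endothelium, held at most 2 fragments in any library. Haus5, an augmin subunit of the spindle, held 32 fragments in lncGM1082 KO, 52 in lnc57Rik KO and 38 in WT. Gm30646, a processed pseudogene of 180 bases, held 3, 2 and 0 fragments in that order, and its log2 fold of 0.93 in lncGM1082 KO against WT rests on them. Clip3, Zbtb32, Rbm42, Gm26610 and Sbsn make up the rest, with ratios of lncGM1082 KO to WT from 0.809 to 1.32, each with an interval that holds 1.

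The NONCODE members below 1 FPKM had means from 0.00559 to 0.886 FPKM. Nearest to the locus, at 13.1 kb, NONMMUG078288.1 had 0.0989 FPKM in lncGM1082 KO, 0.103 in lnc57Rik KO and was listed at 0 in WT. It starts 242 bases from the start of Arhgap33, head to head. NONMMUG037668.2, inside U2af1l4 on the opposite strand, had 0.352 FPKM in lnc57Rik KO and was listed at 0 in lncGM1082 KO and WT. NONMMUG078289.2, which spans Zbtb32 on the opposite strand, was listed at 0 in lncGM1082 KO, with 0.101 FPKM in lnc57Rik KO and 0.0240 in WT. NONMMUG078291.1 had 0.510 FPKM in lncGM1082 KO, 0.971 in lnc57Rik KO and 1.18 in WT. NONMMUG094843.1 was listed at 0 in lncGM1082 KO, with 0.0716 FPKM in lnc57Rik KO and 0.341 in WT. NONMMUG079426.1 was listed at 0 in both knockouts, with 0.248 FPKM in WT. The last 4, NONMMUG037654.2, NONMMUG078284.1, NONMMUG095197.1 and NONMMUG037673.3, were each above 0 in 1 library, at 0.0601 FPKM or less.

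Counting intervals were read against their share over all genes. In lncGM1082 KO against WT, 25 members had a known exon length and at least 10 fragments in both libraries together. Of these, 6 (24.0%) had an interval that excluded 1, against 34.0% of all genes with as many fragments. The 1 above WT was Thap8, where 18.5% of all genes were above, and the 5 below were Tyrobp, Hcst, Aplp1, Proser3 and Psenen, where 15.5% were below. In lnc57Rik KO against WT, 9 of 24 (37.5%) excluded 1, against 51.7% of all genes. The 4 above WT, against 36.7% of all genes, were Wdr62, Nfkbid, Arhgap33 and the U2af1l4 row ENSMUSG00000078765. The 5 below, against 15.1%, were Tyrobp, Hcst, Kmt2b, Dmkn and Syne4. In lncGM1082 KO against lnc57Rik KO, 12 of 26 (46.2%) excluded 1, against 51.5% of all genes, with 7 above (15.8% of all genes) and 5 below (35.8%). Among members with a mean under 1 FPKM it was 3 of 12 (25%) in lncGM1082 KO against WT. For so few members this is near the 18.6% of all such genes. In lncGM1082 KO against lnc57Rik KO it was 7 of 13 (53.8%), above 31.7%, and in lnc57Rik KO against WT 3 of 11 (27.3%), near 33.2%. Both of these shares also rest on few members with low counts. An interval that excludes 1 compares 2 libraries, not the genotypes.

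**Figure D3:**
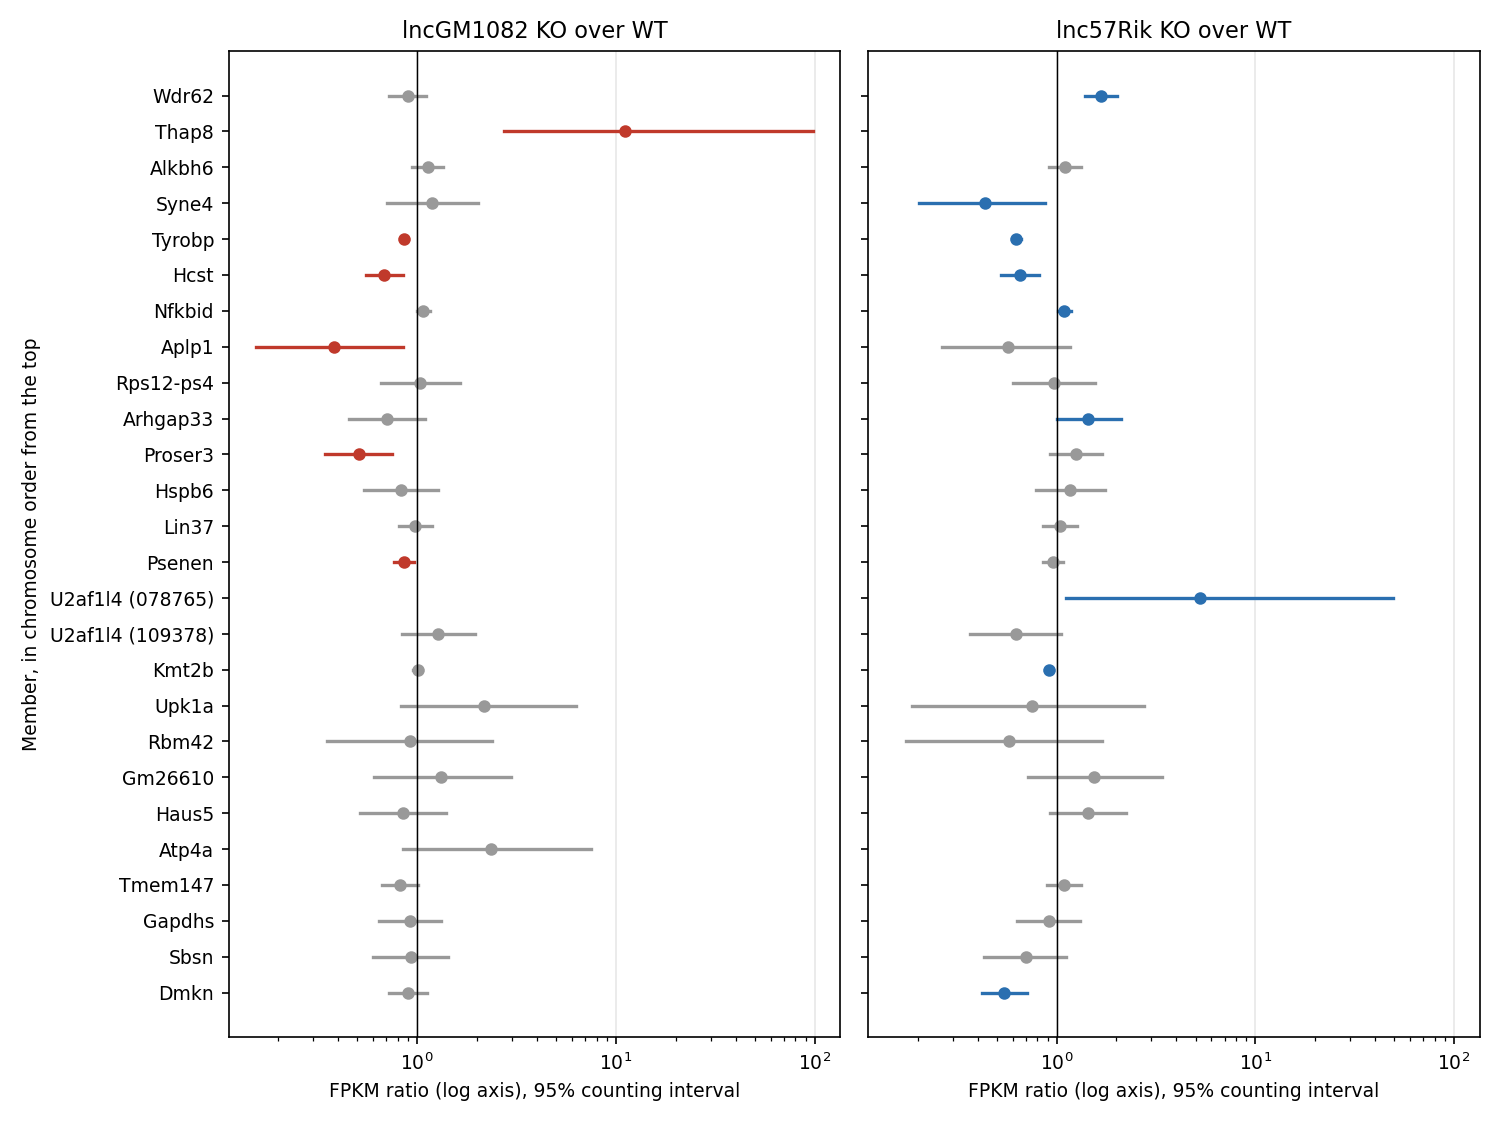
FPKM ratio to WT on a log axis for members with at least 10 fragments in both libraries together, lncGM1082 KO on the left and lnc57Rik KO on the right; points are ratios, bars the 95% counting interval, coloured where it excludes 1. Thap8 is the far point on the left at 11.1, Tyrobp and Hcst lie below 1 in both panels, and Kmt2b sits at 1.01 on the left.

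Since Tyrobp and Hcst were lower in both knockouts, the receptors that signal through such adaptors were examined. Of 25 names listed, 20 were in the table and 16 had a mean of at least 1 FPKM. In lncGM1082 KO against WT, 0 passed the rule of size and 4 of 16 were above 0, against 11591 of the 22202 rows, with a median log2 fold of -0.23 against 0.01 over all rows. In lnc57Rik KO against WT, 1 of 16 was lower, against 1.53% of all rows, and 3 were above 0, against 12996 of the 22202 rows, with a median of -0.51 against 0.07. The 1 was Sirpb1b, a signal regulatory protein with close copies, at 5.10 FPKM in lncGM1082 KO, 2.71 in lnc57Rik KO and 9.03 in WT. Trem1, which amplifies inflammation in myeloid cells, had 34.7 FPKM in lncGM1082 KO, 21.9 in lnc57Rik KO and 40.1 in WT. Clec5a, a DAP12-coupled lectin receptor, had 54.2, 47.0 and 70.3 FPKM in that order. Treml4 was higher than WT in both knockouts, with 14.3, 12.2 and 9.51 FPKM, and so was Cd200r3, with 1.76, 3.03 and 1.14 FPKM. The listed receptors under a mean of 1 FPKM, Cd300e, Klrk1, Siglech and Treml1, were also above WT in both knockouts. Klrk1 had 0.228, 0.483 and 0.121 FPKM in the same order. Of these low receptors, only Treml1 had counting intervals against WT that held 1. The list is broad, and some of its receptors, such as Clec4e, couple mainly to the Fc receptor gamma chain. Of 7 compared genes of adaptor signalling, 0 passed the rule of size in either knockout. That is close to the shares of all rows, 0.865% higher and 0.946% lower in lncGM1082 KO and 3.39% and 1.53% in lnc57Rik KO. Their median log2 folds against WT were -0.04 in lncGM1082 KO, with 2 of 7 above 0, and 0.04 in lnc57Rik KO, with 4 above 0. The 7 are the kinases Syk and Btk, the linkers Lcp2 and Card9, the phospholipase Plcg2, the phosphatase Inpp5d and the adaptor Fcer1g. Syk had 111, 106 and 97.1 FPKM in lncGM1082 KO, lnc57Rik KO and WT, and Lcp2 80.8, 72.3 and 89.8 FPKM.

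**Figure D4:**
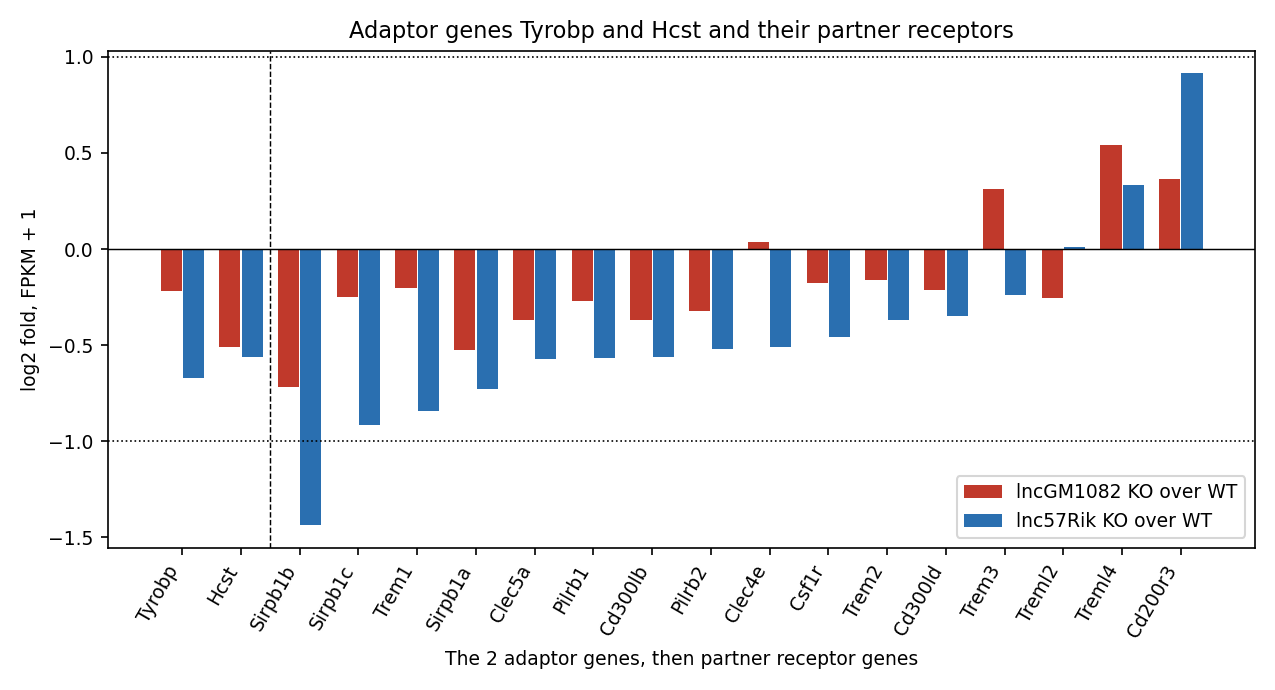
Log2 fold to WT (FPKM plus 1) of Tyrobp and Hcst, left of the dashed line, and of 16 receptor genes of the list, with lncGM1082 KO and lnc57Rik KO bars side by side. The bar of Sirpb1b in lnc57Rik KO, at -1.44, is the only one past the dotted lines at 1 and -1.

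Myeloid identity was checked on the marker list. Of 11 myeloid markers, 0 were at 0 in any library, and their summed FPKM was 6775 in lncGM1082 KO, 8524 in lnc57Rik KO and 9492 in WT. Most of the sum came from S100a9, a calcium-binding protein of neutrophils and monocytes, with 2833, 4509 and 4521 FPKM, and its partner S100a8, with 1672, 2610 and 2718 FPKM in that order. By the rule of size 1 of 10 was lower in lncGM1082 KO, the neutrophil marker Ly6g, where 0.946% of all rows were lower. In lnc57Rik KO 4 of 10 were lower, namely Ly6g, Arg1, Csf3r and Nos2, against 1.53% of all rows. The list was mixed there, with 2 of 10 above WT. These were Ly6c2, at 353 FPKM in lnc57Rik KO and 243 in WT, and Ptprc, at 36.7 and 31.5. Summed lymphoid markers stood at 24.4, 139 and 18.0 FPKM in lncGM1082 KO, lnc57Rik KO and WT over 11 genes, of which 0 were at 0, and dendritic markers at 115, 197 and 90.0 FPKM over 7. Eosinophil markers summed to 263, 333 and 229 FPKM over 3, and basophil and mast cell markers to 71.1, 142 and 64.1 FPKM over 4. Stromal and endothelial markers summed to 21.4, 17.0 and 19.7 FPKM over 4, with Col3a1 at 0 in lnc57Rik KO and WT. Nearly all of that sum came from Pecam1, with 20.6, 16.3 and 18.9 FPKM, and Cdh5 and Col1a1 stayed under 1 FPKM in every library. The part of these cell types in the lower Tyrobp and Hcst values and the higher Wdr62 value was not tested.

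Partners of other members gave 0 calls by the rule of size in both knockouts, in lists of at most 10 compared genes. Over all rows 0.865% were higher and 0.946% lower in lncGM1082 KO, and 3.39% and 1.53% in lnc57Rik KO. The other KMT2 family and complex genes had a median log2 fold of 0.01 in lncGM1082 KO and 0.25 in lnc57Rik KO over 10 compared genes. DREAM core genes, partners of Lin37, had medians of 0.07 and 0.35 over 7. Over all rows the medians were 0.01 and 0.07. Augmin genes, partners of Haus5, had 0.01 and 0.34 over 7. The I kappa B genes had 0.12 and -0.24 over 5, and the other gamma-secretase subunits 0.05 and -0.01 over 6. Nfkbib, an inhibitor of NF-kappa B, had the widest fold of the 5 in lncGM1082 KO against WT, with 47.3 FPKM in lncGM1082 KO, 31.3 in lnc57Rik KO and 31.9 in WT. Relatives of Arhgap33 had medians of 0.03 and 0.04 over 2 genes.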

How the data were processed

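The authors deposited 1 table of FPKM values per gene, 1 column for each library. The submitters' processing notes name Bowtie 0.12.2 and mm9, with no role for either. The gene positions match GENCODE M21 on GRCm38, where 19570 of 20649 Ensembl rows have the identical position, so coordinates are given on GRCm38. How fragments were counted, with or without strand, and how reads of near-identical genes were assigned is not stated in those notes.

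Fragments were recovered from FPKM and the summed exon length in GENCODE M21. Of values under 20 fragments, 99.0% to 99.2% were whole within 0.05 for genes with 1 transcript, where 10% would be by chance. For a 0, 3 fragments were taken as the upper limit. Members, gene lists and named genes were chosen with earlier results of these data known. By rule the text names Arhgap33os, each compared Ensembl member, and the 3 NONCODE members nearest to it. All other members, and genes beyond the window, were named after their values were seen. Alternatives were other pseudocounts, filters, scalings, windows and fragment minimums. Python 3.11.15, numpy 2.4.6, pandas 2.3.3 and scipy 1.17.1 were used. The result of 1 marker list is not reported here.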

Additional observations from a re-analysis of the deposited data

How the results depend on the processing

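With 1 library per genotype no library could be left out. No paired analysis was possible because each genotype has 1 library and no test was made. The counts of 0 members past the rule of size held in all 3 comparisons with pseudocounts of 0.1 and 5 among the 16, without the filter (48 members), with a minimum mean of 5 FPKM (9 members), and under both scalings. The setting without the filter kept the pseudocount of 1, which leaves members under 1 FPKM little room to pass. With a pseudocount of 0.1, the low members Thap8 (2.04) and Aplp1 (-1.01) were past the rule in lncGM1082 KO against WT. The median log2 fold of members in lncGM1082 KO against WT lay between -0.13 and -0.02 over these settings; it was -0.10 for Ensembl rows, 0.08 for the 3 NONCODE rows and -0.08 within 100 kb. Without a filter its medians within 50 kb and on the plus strand turned to 0.00 and 0.04. Over all rows of that comparison, 192 higher and 210 lower became 570 and 520 with a pseudocount of 0.1, 23 and 18 with 5, and 57 and 40 with a minimum mean of 5 FPKM. Under median ratio scaling, which was applied to the intervals after seeing the data, the 4 members with an interval above 1 against WT in lnc57Rik KO became 2, without Nfkbid and Arhgap33, and the 5 below 1 became 7, with Psenen and the U2af1l4 row ENSMUSG00000109378. The 5 below 1 in lncGM1082 KO against WT became 6, with Tmem147. This scaling divides values by 0.988 in lncGM1082 KO, 1.05 in lnc57Rik KO and 0.976 in WT, so ratios of each knockout to WT come out lower. Why the divisors differ was not tested. Of 339 values of single members, 4 changed sign, all under that scaling and for Kmt2b, Lin37 or Nfkbid at folds near 0. Among the same 339 values, 8 were past the rule of size. Depth limits the low members: 1 fragment in 1000 exon bases is worth 0.0541 to 0.0568 FPKM.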

Other observations

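Beyond the window, 95 rows of chromosome 7 lie from 250 kb to 1 Mb away, of which 30 had a mean of at least 1 FPKM. Their median log2 fold in lncGM1082 KO against WT was 0.05, with 0 past the rule of size, and their median absolute fold 0.11. In lnc57Rik KO against WT the median was 0.03 and 1 of 30 was higher, close to the 3.39% of all rows. That gene was Cd22, an inhibitory receptor of B cells 343 kb away, with 1.80 FPKM in lncGM1082 KO, 13.0 in lnc57Rik KO and 1.28 in WT. The NONCODE transcript NONMMUG094844.1, 420 kb away, had 2.90, 0.603 and 1.03 FPKM in that order, a log2 fold of 0.94 in lncGM1082 KO against WT. Just outside the low border, the pseudogene Rps12-ps5 had 0.422 FPKM in lncGM1082 KO, 0.877 in lnc57Rik KO and 0.417 in WT. Just outside the high border, NONMMUG079427.1 had 0.0986, 0.307 and 0.292 FPKM in that order.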
